A study of Caenorhabditis elegans with 2 samples.

Results

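Transfer RNA (tRNA) genes held 201 of the 5982 peaks (3.36%) that the authors retained for the C. elegans transcription factor CEBP-1. A peak was counted when its summit, the position of highest signal, lay within 300 bp of an annotated nuclear tRNA gene, with distance 0 inside the gene. The rule used the positions of summits and genes and no signal value. Of 612 nuclear tRNA genes in the WBcel235 annotation, 222 (36.3%, Wilson 95% interval 32.6 to 40.2%) had such a summit. By the same rule 11% of all 46890 annotated nuclear genes had a summit. That total includes 15363 genes of Piwi-interacting RNAs (piRNAs), of which 0.696% had a summit. The 22 mitochondrial tRNA genes were left out. The ground within reach of a nuclear tRNA gene made up 0.376% of the 6 nuclear chromosomes.

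The data came from chromatin immunoprecipitation with sequencing (ChIP-seq) of whole young adults, male and female animals pooled, collected 63 hours after growth was synchronized from starved L1 larvae. All animals were of strain OP563, which carries the mutation unc-119(tm4063) on chromosome III and the transgene wgIs563, a source of CEBP-1 fused at its C terminus to GFP and FLAG. Chromatin was sheared with a microtip sonicator and precipitated with an antibody against GFP, as the description of the samples states. The antibody label of both samples gives cebp-1 instead, and the description was followed here. There was 1 group with 2 biological replicates, numbered 3 and 7, and no strain without the tag was analysed here. Signal from CEBP-1 and signal that would arise without the tag therefore cannot be told apart. Whole animals pool all tissues, and the labels do not state which cells expressed the fusion protein or whether the native cebp-1 gene was active.

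CEBP-1 is a basic leucine zipper protein of the C/EBP family, known in worms for its roles in neurons, where it acts downstream of the DLK-1 kinase, and in stress responses. Transfer RNA genes are transcribed by RNA polymerase III from promoters inside the gene. The factor TFIIIC binds an A box near the start and a B box near the end of the gene, and then places TFIIIB just upstream of the start, where TFIIIB recruits the polymerase. Transcription ends at a run of T residues shortly after the gene.

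These sequences are shown because they are the genes at 4 of the strongest peaks and hold the internal promoter; capitals mark matches to the B box core GTTCGANNC. Sequence is from the RefSeq copy of WBcel235, 5′ to 3′ on the gene's strand.
K02A4.t1, tRNA-Ser, chrX:12889940-12890021, plus strand: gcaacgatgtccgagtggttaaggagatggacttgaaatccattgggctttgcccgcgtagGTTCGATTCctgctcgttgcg
C04A11.t1, tRNA-Leu, chrX:13665555-13665673, plus strand: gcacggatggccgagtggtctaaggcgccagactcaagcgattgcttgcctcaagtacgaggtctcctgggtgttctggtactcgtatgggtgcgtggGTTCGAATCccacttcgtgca
C33G3.t2, tRNA-Lys, chrX:14063946-14064018, minus strand: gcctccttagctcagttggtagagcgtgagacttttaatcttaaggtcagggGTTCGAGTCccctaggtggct
F15G9.t1, tRNA-Ala, chrX:9743589-9743660, plus strand: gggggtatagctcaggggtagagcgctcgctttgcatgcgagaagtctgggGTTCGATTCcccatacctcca

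The B box core was matched on the gene's strand in 441 of the 612 genes (72.1%), with its first base at a median of base 53 of the gene. The A box core TGGNNNAGT was matched in 182 genes (29.7%), at a median of base 8. In windows of 72 bases beside the other optimal summits the B box core was matched in 0.588% and the A box core in 2.44%. A run of TTTT started within 20 bases after 602 of the 612 genes (98.4%). These cores are short strings, and genes without a match can hold a variant: the tRNA-Gln gene R04A9.t1, under a strong peak, has neither core, and the tRNA-Pro gene F46G11.t2 has the A box core but not the B box core. The share of genes with a peak was 37.4% with the B box core and 33.3% without it, and 37.9% with the A box core and 35.6% without it.

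Summits lay on or just before the gene. Measured on the gene's strand from its first base (position 0), the 201 summits had a median position of 10 bp, with quartiles at -21 and 39 bp and extremes at -171 and 364 bp. Of them 97 (48.3%, interval 41.4 to 55.1%) were inside the nearest tRNA gene, 79 (39.3%, 32.8 to 46.2%) upstream and 25 (12.4%, 8.57 to 17.7%) downstream. In bins of 10 bp the counts had more than 1 mode: 32 summits fell at -30 to -21 bp and 9 at -10 to -1 bp, then 23 at 10 to 19 bp, 8 at 20 to 29 bp and 22 at 30 to 39 bp. Few summits were near the limit of the rule: 182 summits were within 50 bp of the gene and 191 within 100 bp. The farthest summit inside the rule was 292 bp away, at the tRNA-Arg gene F49E7.t2, and the nearest outside it was 375 bp away, at C10G8.t1.

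The 2 replicates placed the summits differently. The strongest summit within 100 bp had a median position of -3 bp in replicate 3 (177 summits matched) and of 18 bp in replicate 7 (195 matched). It fell in the 72 bases from the gene's start in 35.0% of summits in replicate 3 and in 54.9% in replicate 7; the optimal list gave 46.8%. In replicate 3 the fullest bin was -30 to -21 bp, with 29 summits, against 16 in replicate 7. In replicate 7 the fullest bin was 10 to 19 bp, with 26 summits, against 15 in replicate 3. For the 171 peaks matched in both, the replicate summits were a median of 27 bp apart, against 23 bp for the 5080 other optimal peaks matched in both.

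**Figure D1:**
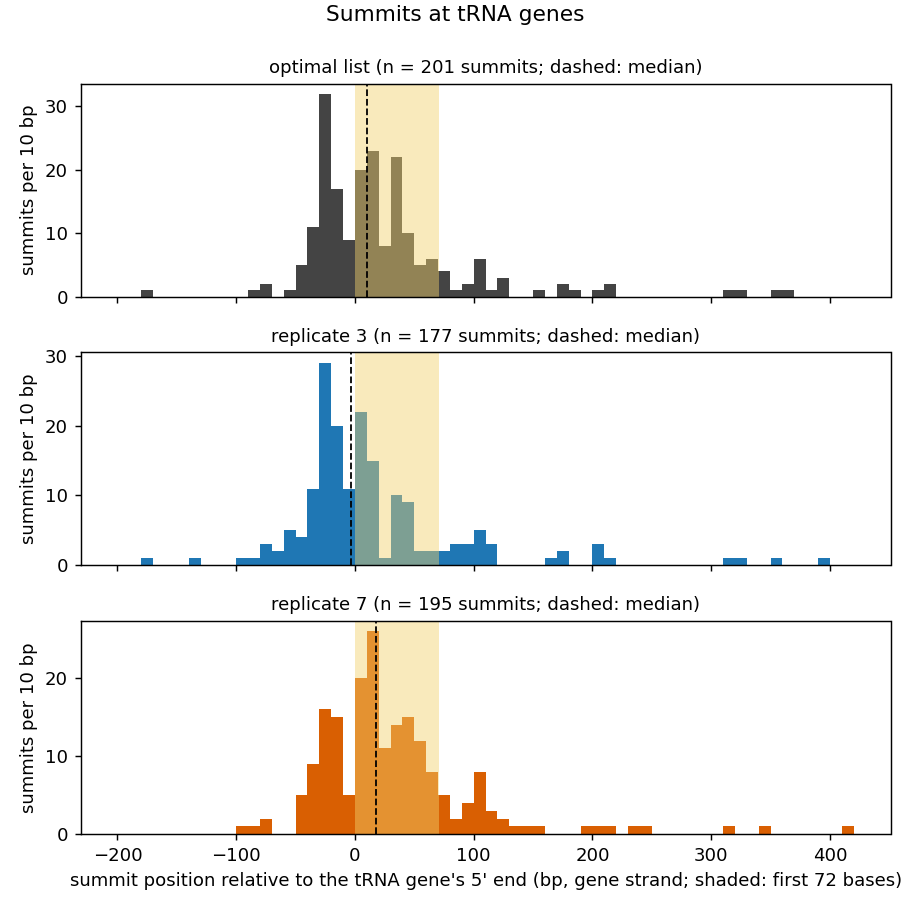
Number of summits per 10 bp (vertical axis) by position from the tRNA gene's first base (horizontal axis, bp, gene strand), for the optimal list and for the matched summits of each replicate. Shading marks the first 72 bases and dashed lines the medians, at 10, -3 and 18 bp; counts gather just upstream of the start and inside the gene, and replicate 7 has more of them inside.

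The windows around 4 summits, 201 bases each with the summit at the middle base, show the range of positions; capitals mark the part of the tRNA gene inside the window. At K02A4.t1 the summit is 37 bp upstream of the gene and at C04A11.t1 it is 12 bp after the first base of the gene. At R04A9.t1 it is 171 bp upstream and at C18A11.t2 it is 255 bp past the gene's end, so these windows hold no tRNA gene.
K02A4.t1, chrX:12889803-12890003, plus strand: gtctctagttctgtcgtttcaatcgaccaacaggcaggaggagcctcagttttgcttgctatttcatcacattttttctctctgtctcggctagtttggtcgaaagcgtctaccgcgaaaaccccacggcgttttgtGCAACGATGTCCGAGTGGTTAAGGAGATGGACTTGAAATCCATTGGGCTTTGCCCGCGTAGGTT
C04A11.t1, chrX:13665467-13665667, plus strand: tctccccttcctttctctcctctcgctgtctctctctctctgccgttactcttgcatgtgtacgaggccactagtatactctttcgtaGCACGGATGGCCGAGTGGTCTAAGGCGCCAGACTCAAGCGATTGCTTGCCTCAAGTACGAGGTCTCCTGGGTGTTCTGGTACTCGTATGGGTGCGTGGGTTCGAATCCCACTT
R04A9.t1, chrX:410120-410320, plus strand: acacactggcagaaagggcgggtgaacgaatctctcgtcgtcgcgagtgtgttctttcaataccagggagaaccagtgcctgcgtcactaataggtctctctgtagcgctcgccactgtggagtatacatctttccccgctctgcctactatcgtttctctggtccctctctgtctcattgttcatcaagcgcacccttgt
C18A11.t2, chrX:8036330-8036530, minus strand: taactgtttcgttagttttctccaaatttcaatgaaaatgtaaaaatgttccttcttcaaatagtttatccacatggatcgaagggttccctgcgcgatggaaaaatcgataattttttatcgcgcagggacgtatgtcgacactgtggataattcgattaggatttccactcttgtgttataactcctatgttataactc

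Motif matches in 101 bp around the summit set the tRNA peaks beside the others. The B box core was in 60 of 201 windows (29.9%, interval 24.0 to 36.5%) against 1.11% of the 5781 other windows, and the A box core in 52 (25.9%, 20.3 to 32.3%) against 3.48%. The windows follow from the rule, which puts them at tRNA genes. The C/EBP palindrome TTGCGCAA was in 0 of the 201 windows, which allows a share of up to 1.49%, and in 0.692% of the others. The strings TTGCGAAA and AGACGCAG, chosen with earlier results of these data known, were in 0 of the 201 windows and in 15.4% and 6.92% of the others. The E-box CACGTG was in 1 tRNA window (0.498%) and 5.69% of the others, and TGATGCAA in 1 and 0.830%. No match says only that these letters are not in these 101 bp.

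**Figure D2:**
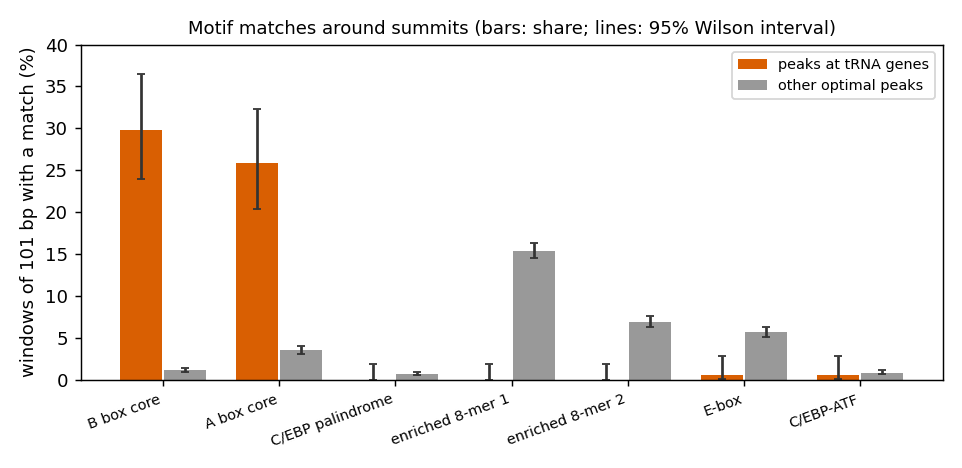
Share of 101 bp summit windows with a match on either strand (vertical axis, %), for 201 peaks at tRNA genes and 5781 other optimal peaks, with Wilson 95% intervals. From the left the strings are GTTCGANNC, TGGNNNAGT, TTGCGCAA, TTGCGAAA, AGACGCAG, CACGTG and TGATGCAA; the first 2 are at 29.9% and 25.9% in the tRNA windows and the other 5 at 0.498% or less.

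Most tRNA peaks were of middle strength. The authors' signal value, computed relative to 1 control file, had a median of 346 (lowest 150, highest 2031) over the 201 peaks and of 297 over the others. All 5982 optimal peaks were those of highest signal in the pooled list, so rank here is rank by that signal. The median rank was 2525, with 3 peaks among the 300 strongest and 21 among the 1000 strongest. From the strongest to the weakest quartile of the list, the tRNA peaks numbered 43, 77, 51 and 30. The tRNA peaks had a median width of 318 bp against 430 bp for the others. Many of the weaker tRNA peaks were listed at exactly 430 bp, so width was not read as the extent of binding. Of the tRNA peaks 39 (19.4%) lay in a protein-coding promoter (from 1000 bp before to 200 bp after a gene's annotated 5′ end), against 43.7% of the others.

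To compare replicates, each replicate's signal was divided by its median over the optimal peaks (204 in replicate 3, 112 in replicate 7); a relative signal of 1 is thus a typical peak. The tRNA peaks had a median relative signal of 0.907 in replicate 3 (quartiles 0.522 and 1.40, n = 177 matched peaks) and of 1.61 in replicate 7 (1.20 and 2.14, n = 195). The other peaks had medians of 1.01 and 0.972. The mean over the replicates had a median of 1.29, and the SD of the 2 replicate medians was 0.494. In each replicate's own 5982 strongest peaks, divided by the median of that list, tRNA peaks had a median of 1.07 in replicate 3 and 1.40 in replicate 7. At the tRNA peaks of the optimal list, the median signal was below the typical peak in replicate 3 and above it in replicate 7.

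Peak by peak the same held. The log2 ratio of relative signal, replicate 7 over replicate 3, had a median of 0.76 over the 171 tRNA peaks matched in both (from -1.37 to 4.44), and 152 of them (88.9%) were higher in replicate 7. Over 5080 other peaks the median was -0.16, and 42.8% were higher in replicate 7. Within quartiles of signal, strongest first, the medians were 0.34, 0.80, 1.38 and 0.79 for tRNA peaks and -0.10, -0.32, -0.21 and -0.0047 for the others. The median was 1.02 for summits inside the gene (77 of 80 higher in replicate 7), 0.57 upstream (60 of 70) and 0.68 downstream (15 of 21). The 4 summits over 200 bp from the gene had a median of -1.25, with 1 of 4 higher in replicate 7. No test of the difference between replicates can be made, since each is 1 library.

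Peaks at other small RNA genes did not all share this. By the same rule 109 peaks lay at genes of small nucleolar RNAs, which guide modification of ribosomal RNA, with a median log2 ratio of 0.49 (64 of 100 higher in replicate 7). The 30 peaks at genes of small nuclear RNAs, the RNAs of the spliceosome, had a median of -0.18 (6 of 25), and the 26 at microRNA genes -0.14 (9 of 25). No tRNA peak was also within 300 bp of a gene of these 3 kinds. The share of genes with a summit within 300 bp was 29.5% for small nucleolar RNAs, 18.6% for small nuclear RNAs, 10.3% for microRNAs and 18.1% for protein-coding genes, which are much longer. Counted from the 5′ end alone, 35.5% of tRNA genes had a summit within 300 bp, 28.0% of small nucleolar RNA genes and 9.76% of protein-coding genes, against 7.14% of all genes. With all 30000 pooled peaks and background the order of tRNA and small nucleolar RNA genes turned, at 41.8% and 52.6%. The order also turned with the 30000 of replicate 3, and it held with those of replicate 7.

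**Figure D3:**
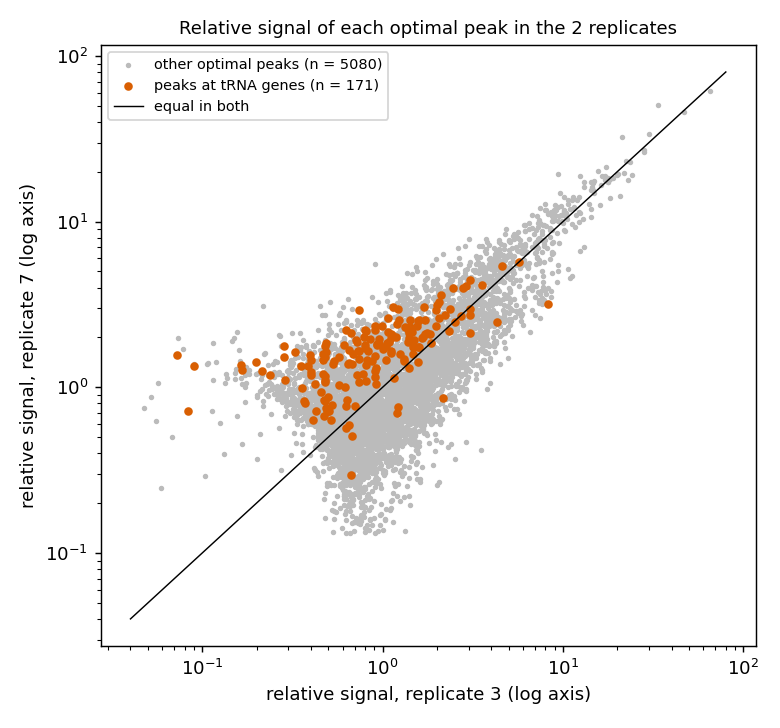
Relative signal in replicate 7 (vertical axis, log scale) against replicate 3 (horizontal axis, log scale) for the 171 peaks at tRNA genes and 5080 other optimal peaks matched in both replicates. The line marks equal values; 152 of the 171 tRNA peaks lie above it.

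Read as lists, the replicates differed in the same way. Among the 5982 strongest peaks of each replicate, 137 tRNA peaks (68.2%) had a summit within 100 bp in replicate 3 and 191 (95%) in replicate 7. The other peaks had 85.9% and 71.4%. Both replicates held 128 of the tRNA peaks (63.7%, interval 56.8 to 70.0%), close to the 60.2% of all optimal peaks. Replicate 7 alone held 63, replicate 3 alone 9, and neither held 1. Counted over the 612 genes, the 5982 strongest peaks of replicate 3 reached 164 (26.8%) and those of replicate 7 reached 332 (54.2%). The share of all annotated genes reached by these lists is not given here, so how far this gap is particular to tRNA genes is not known.

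Of the 390 tRNA genes without an optimal peak, 161 (41.3%) had a summit in the full list of 30000 peaks and background of replicate 7, and 54 (13.8%) in that of replicate 3. Both lists reached 37, replicate 7 alone 124 and replicate 3 alone 17. No list held a summit for 212 (54.4%). For 5′ ends of all annotated genes the full lists were level, at 16.6% in replicate 3 and 17.1% in replicate 7, while for tRNA genes they gave 40% and 60.9%. Small nucleolar RNA genes were at 53.2% and 56.9%, above tRNA genes in replicate 3 and below them in replicate 7. A high share in the full lists was thus not particular to tRNA genes.

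The 10 strongest tRNA peaks were all on the X chromosome and belonged to 9 genes. The strongest, rank 174, was 327 bp after the start of C18A11.t2, a tRNA-Arg gene, with a relative signal of 8.26 in replicate 3 and 3.19 in replicate 7. A second summit of the same interval, 126 bp after the start, ranked 616, at 3.07 and 2.14. Both were higher in replicate 3, against the direction of most members, and both lay past the end of the gene.

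K02A4.t1, a tRNA-Ser gene whose sequence occurs once among the annotated nuclear tRNA genes, ranked 233, at 5.71 in replicate 3 and 5.67 in replicate 7. F41D9.t3, a tRNA-Asn gene, ranked 299, at 4.60 and 5.42; its summit was 27 bp upstream, in an intron of sulp-3, a sulfate permease family gene on the opposite strand. C28G1.t1, tRNA-Glu, ranked 481, at 3.56 and 4.12. Its summit was also in the promoters of C28G1.2 and sec-15, which encodes a subunit of the exocyst. Each of these 3 peaks was at least 3 times the typical peak in both replicates.

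M02F4.t1, tRNA-Gly, ranked 507 (3.05 in replicate 3, 4.45 in replicate 7). R04A9.t1, tRNA-Gln, ranked 538 and was higher in replicate 3 (4.29 against 2.49); its summit is the one 171 bp upstream shown above. C04A11.t1, tRNA-Leu with a single copy, ranked 577 (2.88 and 4.08), and C33G3.t2, tRNA-Lys, ranked 612 (2.80 and 3.99). F15G9.t1, a tRNA-Ala gene in an intron of him-4, which encodes the matrix protein hemicentin, ranked 681 (2.46 and 3.95). Of the 10 peaks, 3 were higher in replicate 3 by more than 0.5 on the log2 scale, and each of these had its summit more than 50 bp outside the gene.

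On the autosomes the strongest peaks were weaker. T23F1.t1, tRNA-Lys on chromosome V, ranked 826 (2.12 in replicate 3, 3.63 in replicate 7), in the promoters of pqn-71 and rocf-1. B0350.t1, tRNA-Lys on IV, ranked 835 (2.72 and 2.69). On III the strongest was sup-5, rank 937 (2.0 and 3.15), in an intron of fli-1, the flightless homologue, which encodes an actin-binding protein of the gelsolin family. On II T21B4.t1, tRNA-Ile in an intron of the collagen gene col-85, ranked 1147, with 3.04 in replicate 7 and no summit within 100 bp in replicate 3. On I K07A1.t1, tRNA-Ser in the promoter of the aquaporin gene aqp-9, ranked 1344 (1.85 and 1.86).

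The 3 weakest tRNA peaks were close to the end of the optimal list. A second summit at F35H8.t1, tRNA-Arg, ranked 5792 (0.426 in replicate 3, 0.724 in replicate 7), while its first summit, 16 bp into the gene, ranked 1581 (1.07 and 2.60). F02D10.t3, tRNA-Leu, ranked 5894 with 0.953 in replicate 7 and no match in replicate 3. ZK970.t4, tRNA-Pro in an intron of clpp-1, the mitochondrial Clp protease subunit, ranked 5901 (0.0839 and 0.723). Each of the weakest 3 that could be compared was higher in replicate 7.

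sup-5 is a tRNA-Trp gene known from mutations that turn it into a suppressor of amber stop codons. The same sequence occurs in 10 genes, 7 of them with a sup name, and this group was chosen after its values were seen. Peaks were called at sup-5, at sup-28 on X (rank 4580, 0.629 in replicate 3 and 0.570 in replicate 7, in an intron of trk-1) and at Y95B8A.t1 on I. No optimal summit lay within reach of sup-7, sup-21, sup-24, sup-29 or sup-33, although the full list of replicate 7 held summits at sup-7 and sup-29.

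The X chromosome carried 276 of the 612 tRNA genes, 15.6 per Mb against 3.73 to 4.64 per Mb on the autosomes. It held 79 of the 201 tRNA peaks (39.3%), against 45.1% of tRNA genes and 16.3% of the other optimal peaks. Of the X tRNA genes 88 (31.9%, interval 26.7 to 37.6%) had a peak, and of the 336 autosomal ones 134 (39.9%, 34.8 to 45.2%). For 5′ ends of all annotated genes of any kind the shares were 8.88% on X and 6.89% on the autosomes. That total includes 15363 piRNA genes, of which 0.657% had a summit at the 5′ end. It was not split by kind of gene for each chromosome, so the order for other kinds is not known. Among the autosomes the share ran from 28.2% on V (22 of 78, 19.4 to 39.0%) through 39.4% on IV (28 of 71), 40.9% on I (27 of 66) and 43.9% on II (25 of 57) to 50% on III (32 of 64, 38.1 to 61.9%). The intervals of neighbouring chromosomes in this order overlapped widely.

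The difference between X and the autosomes was seen in replicate 7 and hardly in replicate 3. Among the 5982 strongest peaks of replicate 3 the shares were 26.4% on X and 27.1% on the autosomes, and in replicate 7 they were 48.9% and 58.6%. Peaks on X were somewhat stronger, with a median signal of 384 against 328, and the median log2 ratio was 0.68 on X and 0.80 on the autosomes. On every chromosome the median was above 0, from 0.59 on III to 1.18 on IV.

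A tRNA gene was called clustered when another lay within 2000 bp, and isolated otherwise. There were 341 isolated genes and 271 genes in 112 clusters. A peak was near 113 isolated genes (33.1%, interval 28.4 to 38.3%) and 109 clustered ones (40.2%, 34.6 to 46.2%). A summit between close neighbours counts for each of them: 171 of the 201 summits reached 1 tRNA gene, 29 reached 2 and 1 reached 3. When each summit counted only for the nearest gene, the share was 33.1% for isolated and 29.5% for clustered genes, so the order turned. It also turned by replicate: the strongest peaks of replicate 3 reached 29.0% of isolated and 24.0% of clustered genes, and those of replicate 7 reached 49.0% and 60.9%.

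Clustered genes on the 2 kinds of chromosome differed. On the autosomes 53.4% of 118 clustered genes had a peak (interval 44.4 to 62.1%), or 39.0% by the nearest gene alone, and on X 30.1% of 153 (23.4 to 37.7%), or 22.2%. Isolated genes were at 32.6% on the autosomes and 34.1% on X. In the optimal list the share was 40.7% in clusters of 2, 40.5% in clusters of 3 and 38.6% in larger ones. The replicates gave other values, 27.3%, 23.8% and 14% for the strongest peaks of replicate 3 and 62.2%, 69.0% and 50.9% for those of replicate 7. Peaks at isolated genes were found among the strongest of both replicates in 71.7%, and peaks at clustered genes in 51.9%.

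The orientation of the genes in the 86 pairs, clusters of 2, was also recorded. In 36 pairs the genes were head to head, with their starts facing each other over a median gap of 160.5 bp. Here 15 pairs had a peak at both genes, 3 at 1 gene and 18 at neither, and 13 of the pairs shared a summit. In 20 tail-to-tail pairs, with a median gap of 496 bp, the numbers were 4, 11 and 5, and in 30 tandem pairs, with a median gap of 681.5 bp, they were 5, 8 and 17. Over 33 pairs more than 600 bp apart, where no summit can count for both, 5 had a peak at both genes, 13 at 1 and 15 at neither.

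The densest cluster held 8 tRNA genes in about 4 kb of X, chrX:8152546-8156707. F22F1.t2 (Ser) and F22F1.t3 (Asp) shared a summit of rank 3645, 3 bp upstream of F22F1.t3, with 1.61 in replicate 7 and no match in replicate 3. F22F1.t7 (Ile) had a summit 27 bp upstream of it, rank 2793, at 0.911 in replicate 3 and 1.16 in replicate 7. F22F1.t9 (Asp), F22F1.t8 (Ser), F22F1.t4 (Ser), F22F1.t5 (Asp) and F22F1.t6 (Met) had no optimal summit. The tRNA-Ser genes F22F1.t8, F22F1.t2 and F22F1.t4 have the same sequence, and all 8 genes had a summit in the full list of replicate 7.

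Introns of protein-coding genes held 284 tRNA genes, in 220 hosts, and 115 of them (40.5%, interval 34.9 to 46.3%) had a peak. Of the 328 other tRNA genes 107 (32.6%, 27.8 to 37.9%) had one. On the host's own strand the share was 37.7% (61 of 162, 30.6 to 45.3%) and on the opposite strand 44.3% (54 of 122, 35.8 to 53.1%). This order held in the strongest peaks of replicate 7, at 55.6% and 63.9%, and turned in those of replicate 3, at 29.0% and 27.0%. The contrast between intronic and other genes was seen on X, at 41.1% of 95 and 27.1% of 181, while on the autosomes the shares were 40.2% and 39.5%. In the strongest peaks of replicate 3 the shares were 28.2% for intronic and 25.6% for other genes, and in those of replicate 7 they were 59.2% and 50%. The intronic peaks were no stronger, with a median signal of 334 against 363.

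**Figure D4:**
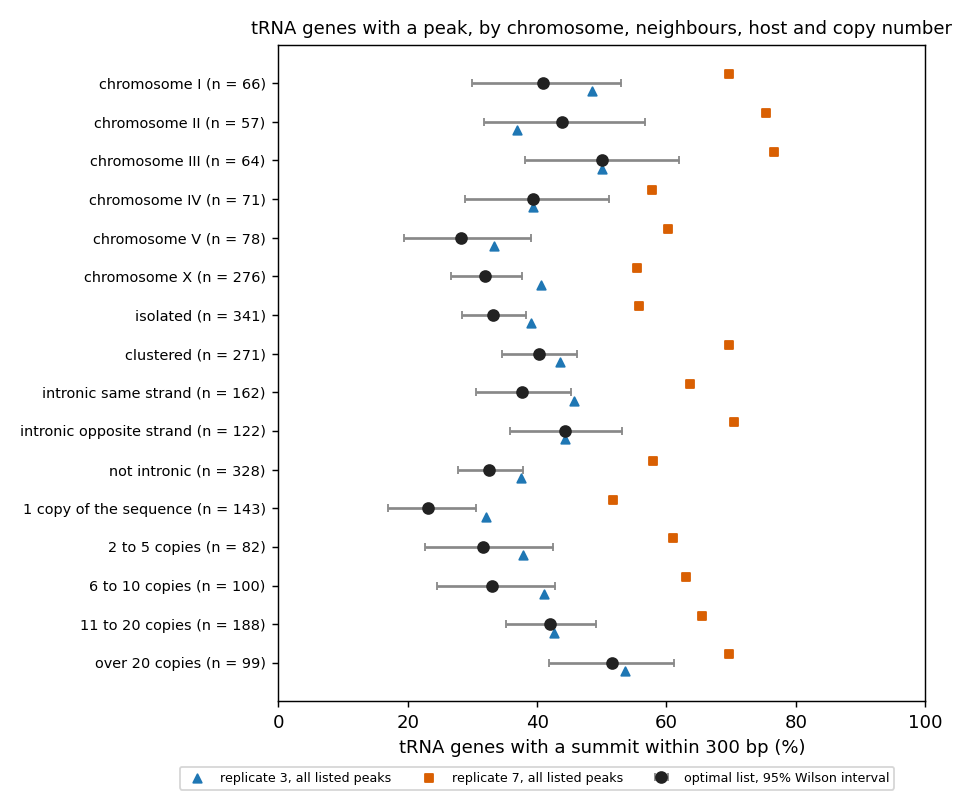
Share of tRNA genes with a summit within 300 bp (horizontal axis, %) by chromosome, neighbours, host intron and copy number of the sequence, with n genes beside each label. Black points with Wilson 95% intervals are the optimal list, triangles and squares the full lists of replicates 3 and 7; in every class replicate 7 reaches more genes than replicate 3, and the optimal share rises from 23.1% at 1 copy to 51.5% over 20 copies.

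Many tRNA genes are exact copies of each other: the 612 genes had 200 distinct sequences, and 143 genes had a sequence found once. Of these 33 (23.1%, interval 16.9 to 30.6%) had a peak. The share was 31.7% at 2 to 5 copies, 33.0% at 6 to 10, 42.0% at 11 to 20 and 51.5% (41.8 to 61.1%) over 20 copies. By the nearest gene alone the shares were 20.3%, 30.5%, 32.0%, 37.2% and 37.4%. The lowest and highest classes were in the same order among the strongest peaks of replicate 3 (18.2% and 34.3%) and of replicate 7 (38.5% and 68.7%). How the authors placed reads that match several copies was not given in the sources used here, and its part in these shares was not tested.

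Copies of the same sequence often differed in whether they had a peak in the optimal list. Of 57 sequences with 2 or more copies, 43 had copies with and without a peak, 12 had no copy with a peak and 2 had a peak at every copy. The 20 sequences with 10 or more copies comprised 317 genes. Counting every gene in reach of a summit, each had some copy with a peak, none had all, and the share ran from 9.09% to 65.5%. The highest was the tRNA-Gly sequence with 29 copies, 19 with a peak, and the lowest a tRNA-Ser sequence with 1 of 11. Between these were a tRNA-Ala and a tRNA-Thr sequence with 9 of 15 each, a tRNA-Pro sequence with 8 of 24 and a tRNA-His sequence with 4 of 11. The 1 tRNA-Ser copy, F22F1.t2, was reached only by a summit that lay nearer to its neighbour F22F1.t3. By the nearest gene alone, that tRNA-Ser sequence had no copy with a peak.

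The following pairs show, for 3 of these sequences, a copy with a peak in the optimal list and then a copy without such a peak. The gene is in capitals, with 40 bases before it and 20 after it in lower case. The genes of a pair are identical and only the flanks differ.
F46G11.t2, tRNA-Pro with a peak, chrX:5801191-5801322, minus strand: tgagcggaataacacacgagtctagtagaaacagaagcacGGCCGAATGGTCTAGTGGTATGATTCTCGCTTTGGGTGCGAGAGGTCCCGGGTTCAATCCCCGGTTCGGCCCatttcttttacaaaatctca
ZK970.t2, tRNA-Pro without, chrII:10304971-10305102, plus strand: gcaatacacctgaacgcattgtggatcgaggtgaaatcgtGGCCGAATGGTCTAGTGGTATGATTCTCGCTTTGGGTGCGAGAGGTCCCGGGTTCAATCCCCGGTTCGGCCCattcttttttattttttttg
ZK563.t1, tRNA-Thr with a peak, chrX:3371402-3371533, minus strand: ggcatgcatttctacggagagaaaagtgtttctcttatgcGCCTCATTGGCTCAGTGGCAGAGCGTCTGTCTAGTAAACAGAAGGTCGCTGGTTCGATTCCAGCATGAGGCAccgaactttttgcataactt
W10G11.t2, tRNA-Thr without, chrII:3567590-3567721, minus strand: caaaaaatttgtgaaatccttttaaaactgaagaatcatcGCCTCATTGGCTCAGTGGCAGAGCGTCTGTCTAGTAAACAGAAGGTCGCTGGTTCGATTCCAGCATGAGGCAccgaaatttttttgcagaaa
C06G1.t1, tRNA-His with a peak, chrX:16634810-16634941, minus strand: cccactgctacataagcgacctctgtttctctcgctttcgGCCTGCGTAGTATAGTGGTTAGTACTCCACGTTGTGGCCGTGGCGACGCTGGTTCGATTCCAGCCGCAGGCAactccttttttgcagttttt
C49F5.t1, tRNA-His without, chrX:11993501-11993632, minus strand: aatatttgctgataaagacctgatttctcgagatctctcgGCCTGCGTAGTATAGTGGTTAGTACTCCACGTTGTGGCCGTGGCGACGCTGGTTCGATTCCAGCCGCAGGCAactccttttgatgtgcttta

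F46G11.t2 ranked 880, at 2.37 in replicate 3 and 2.99 in replicate 7, with its summit 30 bp upstream. C06G1.t1 ranked 699, at 3.07 and 2.96, with its summit 9 bp into the gene and an intron of C06G1.1 around it. A TTTT run follows each of the 6 genes shown, within the printed 20 bases. C49F5.t1 had no optimal peak, but the full lists of both replicates held a summit within 300 bp of it. Its pair thus differs in the optimal list and not in the presence of a listed summit. The pairs are examples and were chosen because none of their copies lies on chromosome I.

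All 20 standard amino acids had at least 1 tRNA gene with a peak, and 19 of the 20 had a share above the 11% of all annotated genes. Shares were highest for glycine (29 of 55, 52.7%, interval 39.8 to 65.3%) and threonine (17 of 34, 50%, 34.1 to 65.9%), followed by isoleucine (44.8%), aspartate (44.4%) and glutamate (41.5%). By the nearest gene alone glycine was at 34.5% and threonine at 44.1%. The lowest were tyrosine (2 of 19, 10.5%, 2.94 to 31.4%), serine (8 of 39, 20.5%, 10.8 to 35.5%), cysteine (3 of 13, 23.1%) and tryptophan (3 of 12, 25%). The full list of replicate 7 reached 13 of the 19 tyrosine genes (68.4%), more than for most amino acids, so a low share in the optimal list did not mean that no summit was found. For all 20 amino acids the full list of replicate 7 reached more genes than that of replicate 3, and the median log2 ratio was above 0. For some the median was small and rested on few matched peaks. It was 0.0142 for serine (3 of 5 higher in replicate 7), 0.0944 for tyrosine (1 of 2) and 0.257 for tryptophan (1 of 2).

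**Figure D5:**
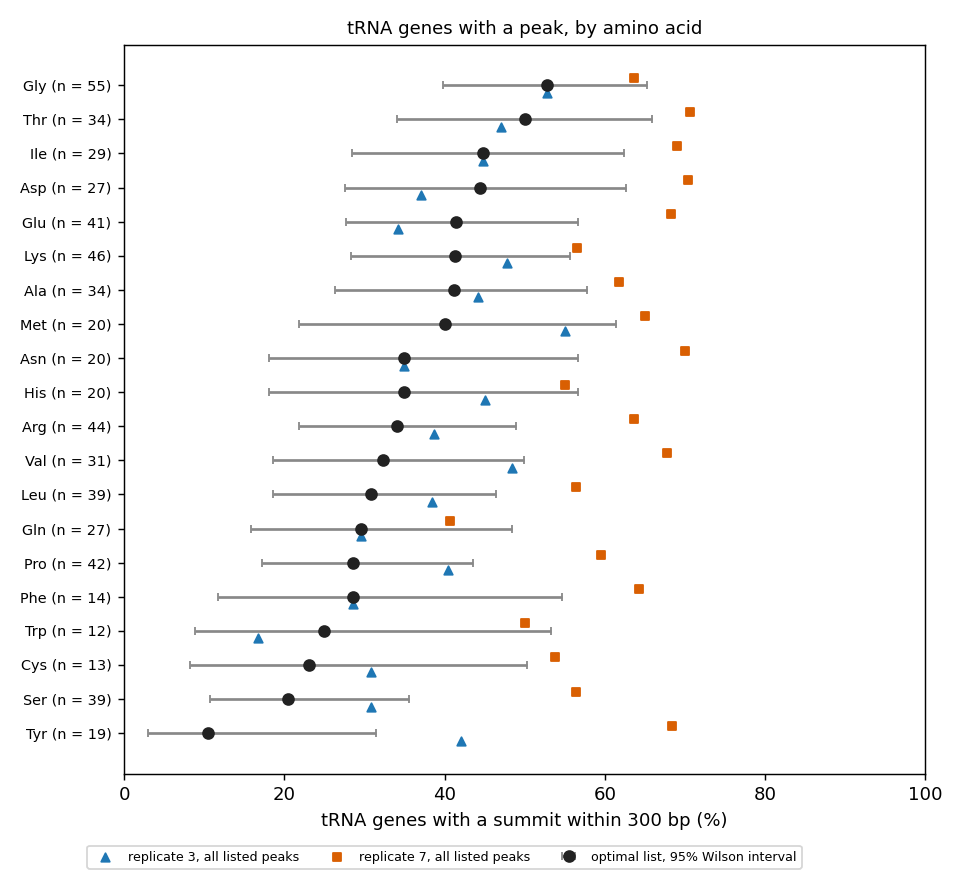
Share of tRNA genes with a summit within 300 bp (horizontal axis, %) by amino acid, with n genes beside each label. Black points with Wilson 95% intervals are the optimal list, ordered by share from glycine at 52.7% to tyrosine at 10.5%; triangles are the full list of replicate 3 and squares that of replicate 7, which is the higher of the replicates for each amino acid.

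The depth of each replicate is unknown, since the lists give no read counts. No p-value was computed for any contrast above: 1 group of 2 replicates allows no test between groups, and genes that share a sequence, a cluster or a summit are not replicates. Wilson intervals cover counting error only.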

How the data were processed

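The authors deposited ce11 peak lists for each replicate, for the pooled alignments (30000 peaks each, for the irreproducible discovery rate, IDR), and an optimal list past an IDR threshold, as the accompanying text files state. The deposited signal value is the authors' own, relative to 1 control file, and served only to describe and rank peaks. The peak caller and the IDR threshold are not given in the sources used here. The ce10 lists were not used here.

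Genes came from Ensembl release 115 (WBcel235, the same assembly as ce11). All 612 nuclear tRNA genes matched RefSeq by WormBase ID with equal coordinates, and RefSeq gave the amino acids; 5 genes had none. Coordinates are 1-based. A replicate's value was that of its strongest summit within 100 bp. Intronic genes lay wholly inside a protein-coding gene and touched no exon of it. Motifs were searched on both strands in the windows around summits, and on the gene's strand alone within tRNA genes. Interval functions were tested on simulated data. Columns of samples left unused numbered 0.

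Named peaks were the 10 strongest, the strongest per chromosome, the 2 strongest at isolated, clustered, same-strand and opposite-strand intronic genes, the 3 weakest, and the densest cluster. The members and lists were chosen with earlier results of these data known. Alternatives covered the distance, cluster gap, replicate match, peaks used and each replicate left out. Python 3.11.15, numpy 2.4.6, pandas 2.3.3, scipy 1.17.1 and matplotlib 3.10.9 were used.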

Additional observations from a re-analysis of the deposited data

How the results depend on the processing

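Of 94 values recomputed under 13 alternatives, 31 moved, a count by more than 1.5 times, a share to outside its Wilson interval or the signal by more than its SD. The order of isolated and clustered genes turned with replicate 3 alone, with the 50% of peaks of highest signal and by the nearest gene alone. Using the strongest peaks of replicate 3 alone and of replicate 7 alone, the peaks at tRNA genes ranged from 154 to 311 and the tRNA genes with a peak from 164 to 332. The median relative signal ranged from 1.07 to 1.40. Here it is signal over the median of that replicate's own list. It is thus another measure, on other peaks, than the 1.29 of the optimal list. The share with a peak ranged from 29.0 to 49.0% for isolated, 24.0 to 60.9% for clustered, 28.2 to 59.2% for intronic, 25.6 to 50% for other, 26.4 to 48.9% for X and 27.1 to 58.6% for autosomal genes, and summits inside the gene from 30.5 to 54.0%. With only the 50% of optimal peaks of highest signal there were 120 peaks at 132 genes, with shares of 23.2% (isolated), 19.6% (clustered), 21.8% (intronic), 21.3% (other), 19.6% (X) and 23.2% (autosomal), and 90% of peaks were found in both replicates; fewer peaks were tested by construction. All 30000 pooled peaks and background gave 50.9% (clustered), 40.9% (other), 39.5% (X) and 45.8% (autosomal), with 40.1% of summits inside the gene. Clustered genes were at 32.8% with a distance of 100 bp and, in an alternative chosen after seeing the data, at 29.5% by the nearest gene alone. Intronic genes were at 46.3% among sequences with 2 or more copies, also chosen after seeing the data, and 52.2% of peaks were in both replicates with a match of 50 bp. No paired analysis was possible because there was 1 group. Depth is unknown, so a gene without a summit cannot be read as unbound.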

Other observations

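The gene for selenocysteine tRNA, K11H12.t1 on chromosome IV, reads a UGA codon in the mRNA of a selenoprotein and is the only gene of its kind. It had a peak of rank 2024 53 bp upstream of the gene's start, and was chosen after its values were seen. The relative signal was 1.40 in replicate 3 and 1.30 in replicate 7, a log2 ratio of -0.10, while 152 of 171 tRNA peaks matched in both were higher in replicate 7. It lies in an intron of K11H12.8, on the host's strand.

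A cluster on X, F28H6.t2 to F28H6.t7 between 14135045 and 14137010, holds 6 tRNA-His genes, all with the sequence printed for C06G1.t1. None of the 6 had a summit within 300 bp in the optimal, pooled, replicate 3 or replicate 7 list, and of the 5 other genes with that sequence 4 had an optimal peak. This cluster is outside the naming rule above and was chosen after its values were seen. Of all 612 nuclear tRNA genes, 390 had no optimal peak, and 212 of these had no summit in the full list of either replicate. Hosts with many tRNA genes also differed: ajm-1, which encodes an apical junction protein, holds 5 intronic tRNA genes, 2 with a peak, and K01A12.3 holds 5, none with a peak. The ribosomal RNA genes, 20 by annotation, had no optimal summit within 300 bp.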
